A study of Mus musculus with 6 samples.

Results

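The Hox genes encode homeodomain transcription factors that give cells of the embryo their position along the body and limb axes, and many skeletal and connective tissue cells of the adult keep the Hox pattern of the place where they arose. In the mouse they lie in 4 clusters, Hoxa, Hoxb, Hoxc and Hoxd, on separate chromosomes, and a member is numbered by its paralog group, low numbers standing for the end that is used toward the head and high numbers for the end used toward the tail and the tips of the limbs. The members were chosen by their symbols, Hox followed by a cluster letter and a paralog number, with earlier results of the diet comparison known, among them that of Hoxc4. The HFD against CD values below are therefore a description of the family and not an independent test of it. There were 38 such genes among the 32000 genes of the table, and 31 of them passed the filter on low counts that left 19831 genes for the fit. No gene of the table bore the symbol Hoxd12.

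The study asked how a long-term high-fat diet into old age affects bone and marrow. Bulk mRNA sequencing was done on 3 HFD and 3 CD libraries from male C57BL/6J mice aged 18 months. HFD mice had received a high-fat diet for 12 months, and CD mice a diet that the labels call a chewing diet and the methods standard chow over the same 12 months. The HFD libraries carry the replicate numbers 2, 3 and 4, and the CD libraries the numbers 1, 2 and 4. The labels name the tissue as cortical bone, while the methods describe marrow cells taken from femurs and tibias and other passages of the paper speak of particles of bone, so which pieces of which bones each library holds is not settled. Whether the 6 libraries stand for 6 animals is not stated, and p-values here rest on the spread from library to library, part of which may be technical.

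The total count per library was between 54.5 and 61.6 M. Defining bone genes were present in every library, with 25003 to 133121 counts of the type I collagen gene Col1a1 in HFD libraries and 85866 to 1911855 counts in CD libraries. None of the 12 genes of the bone matrix list was at 0 in any library. Skeletal muscle genes were also high, and transcripts of intestinal epithelium were present in the HFD libraries and CD 4 but scarce in CD 1 and CD 2, as Muc2 shows. The intestinal mucin gene Muc2 had 2336, 2418 and 2437 counts in HFD 2, HFD 3 and HFD 4, against 4, 11 and 2130 counts in CD 1, CD 2 and CD 4. In such mixed tissue, fewer cells of a type and less RNA per cell cannot be told apart.

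Along the clusters, levels between genes were compared as FPKM, the deposited values scaled for gene length and library depth. Hoxc10, which in the mouse takes part in patterning the lumbar spine and the hindlimb, had the highest mean FPKM over the 6 libraries, 7.75. It was the highest member in 5 of the 6 libraries, and in the remaining one, HFD 2, it stood at 0.177 FPKM while Hoxa4 led with 3.40 FPKM. Next in the order of mean FPKM were Hoxd8 (1.97), Hoxa7 (1.78), Hoxa10 (1.76) and Hoxa9 (1.39), whose values across libraries overlapped. Paralog group 13, the end that patterns the digits and the hindgut, was low, from 0 to 0.708 FPKM. Between 27 and 31 members reached 10 counts in an HFD library, and between 30 and 32 did in a CD library.

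**Figure D1:**
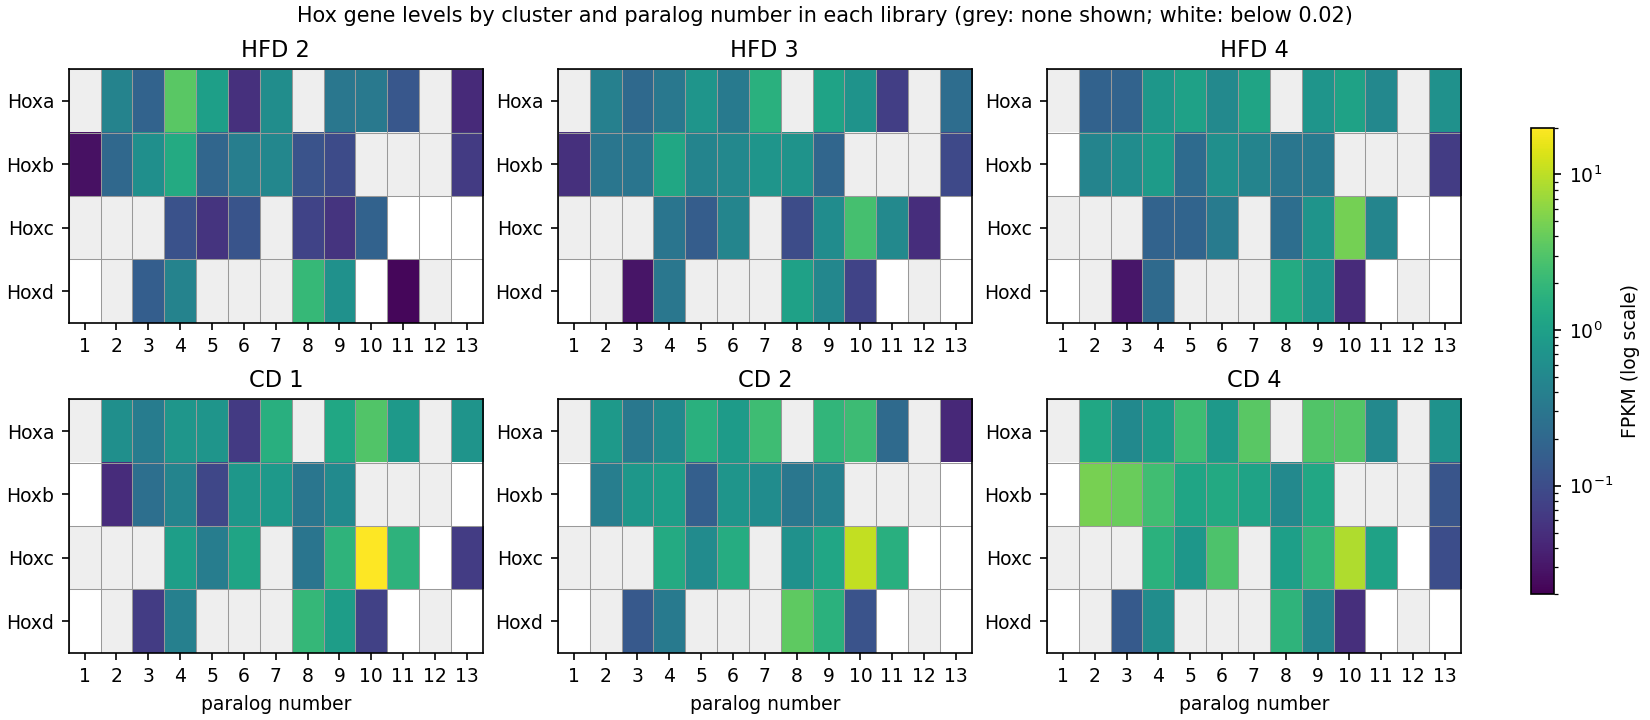
FPKM of 37 of the 38 Hox genes on a log colour scale, by cluster (rows) and paralog number (columns), 1 panel per library with the HFD libraries in the top row and the CD libraries below. Hoxc10 is the brightest cell in 5 of the 6 panels, and the Hoxc row of HFD 2 is dark throughout, with no value above 0.177 FPKM.

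The order of the 38 members was much alike in most libraries. Spearman's rho of their FPKM, given as a description over 38 genes that share library and depth, was between 0.668 and 0.849 among the 5 libraries other than HFD 2, and between 0.492 and 0.663 for the pairs with HFD 2. The pairs with HFD 2 were thus the least alike, though the highest of them, 0.663, was close to the 0.668 of CD 1 and CD 4. The log2 fold changes of the main Hoxc and Hoxa genes are given below also without HFD 2.

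Most Hox genes had a lower fitted mean in HFD, though none passed the adjusted test of the edgeR fit. Of the 31 tested members, 29 had a lower fitted mean in HFD, beside 52.5% of all tested genes. The median log2 fold change, HFD minus CD, was -1.38 over the members and -0.03 over all tested genes. The groups did not overlap in 14 members, each with every HFD library below every CD library, where 10.2% of all tested genes did the same. No member had all HFD libraries above all CD libraries, which 4.97% of all genes had. Summed over the 38 genes, the normalised level, TMM-scaled CPM, the count divided by the scaled library total, was 31.9, 40.9 and 68.4 in HFD 2, HFD 3 and HFD 4, against 179, 90.3 and 190 in CD 1, CD 2 and CD 4. The lowest CD library was thus above the highest HFD library, and the means were 47.1 ± 19.0 in HFD and 153 ± 54.6 in CD (SD, n = 3 each).

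No single member passed edgeR's quasi-likelihood test after Benjamini-Hochberg adjustment over all genes, nor did any gene of the table (0% called, smallest adjusted p 0.466). An unadjusted p under 0.05 was reached by 12 members, all of them lower in HFD, and by 7.2% of all tested genes in that direction. DESeq2 called 5 members, all lower in HFD, namely Hoxc4, Hoxc6, Hoxc5, Hoxa10 and Hoxa2, where it called 1.11% of all genes as lower.

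**Figure D2:**
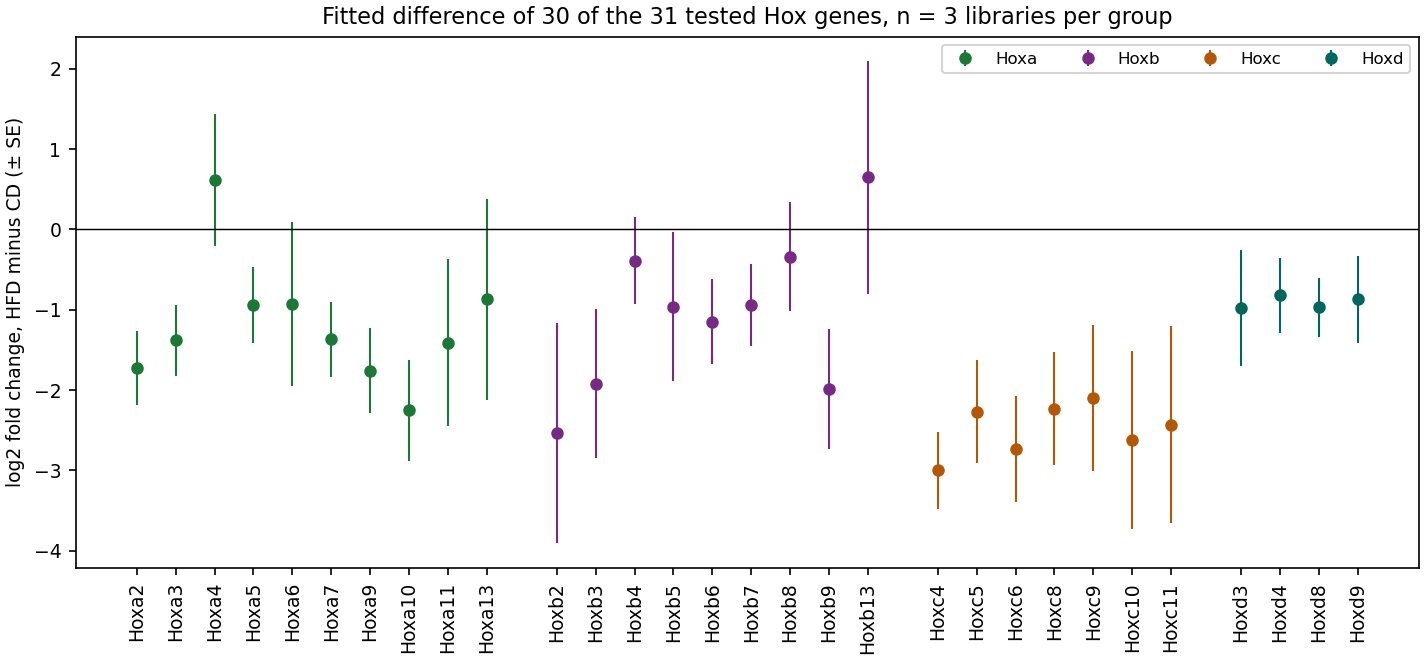
Fitted log2 fold change, HFD minus CD, with its SE (edgeR, n = 3 libraries per group) for 30 of the 31 tested Hox genes, ordered by cluster and paralog number and coloured by cluster. Hoxa4 and Hoxb13 are the members above 0, and the 7 Hoxc genes lie between -3.00 and -2.10.

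The fitted differences were set side by side by cluster and by position. The median log2 fold change was -2.43 over the 7 tested Hoxc genes, -1.38 over 11 Hoxa genes, -0.96 over 9 Hoxb genes and -0.92 over 4 Hoxd genes. By position it was -1.74 in paralog groups 1 to 3, -0.96 in groups 4 to 8 and -1.87 in groups 9 to 13, over 6, 15 and 10 genes. Spearman's rho between the log2 fold change and the paralog number was 0.02 over the 31 genes, and 0.05 in Hoxa, 0.53 in Hoxb, 0.36 in Hoxc and 0.40 in Hoxd over 11, 9, 7 and 4 genes, a description only, since neighbours share libraries and in part a locus. The difference between clusters itself was not tested.

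Hoxc was the cluster in which the diet groups separated in every tested gene. It spans 102921103 to 103036852 on chromosome 15 (GRCm38), and all 7 of its tested members, Hoxc4, Hoxc5, Hoxc6, Hoxc8, Hoxc9, Hoxc10 and Hoxc11, had each HFD library below each CD library, as 10.2% of all tested genes did. Without HFD 2 the median log2 fold change was -1.89 in Hoxc and -1.25 in the whole family, and the fold changes were -2.69 in Hoxc4, -2.30 in Hoxc6, -1.56 in Hoxc9 and -2.06 in Hoxc10.

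Hoxc4 (ENSMUSG00000075394, 103018934 to 103036852, plus strand), of the paralog group that patterns the neck vertebrae in the mouse, had the smallest p of the family. Its normalised CPM was 0.276, 0.677 and 0.639 in HFD 2, HFD 3 and HFD 4, against 4.39, 3.19 and 5.22 in CD 1, CD 2 and CD 4, from 19 to 50 counts in HFD and 173 to 303 counts in CD. The groups lay far apart, and HFD 2 was the lowest library. The log2 fold change was -3.00 ± 0.48 (SE), with an adjusted p of 0.466 by edgeR and of 4.43e-06 by DESeq2, and it ran from -3.23 to -2.69 as each library was left out in turn.

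Because paralogs are alike in sequence, the homeobox stretch of Hoxc4 is printed beside that of its paralog Hoxa4, to show how far reads of such genes can be told apart. Each is the 180-base stretch that codes for the 60 residues most alike across the family, read 5′ to 3′ on the coding strand from GENCODE M21 transcripts (GRCm38), and capitals mark the bases that differ from Hoxc4.
Hoxc4 chr15:103035666-103035845 (+), exon 2 of 2: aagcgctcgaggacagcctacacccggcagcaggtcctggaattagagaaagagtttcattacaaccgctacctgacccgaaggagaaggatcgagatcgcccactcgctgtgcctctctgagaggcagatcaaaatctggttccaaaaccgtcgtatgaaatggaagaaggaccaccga
Hoxa4 chr6:52190480-52190659 (-), exon 2 of 2: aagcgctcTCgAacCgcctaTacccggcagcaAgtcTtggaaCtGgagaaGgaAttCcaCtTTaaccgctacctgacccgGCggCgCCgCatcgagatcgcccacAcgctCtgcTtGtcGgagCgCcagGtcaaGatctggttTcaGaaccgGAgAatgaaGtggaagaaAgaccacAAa
The Hoxa4 stretch differs from that of Hoxc4 at 39 of 180 bases, but at only 4 of the 60 residues it codes for. Over all 38 members, 41 pairs of the same paralog group had a median residue identity of 93.3% in this window, while 164 pairs of neighbours from 1 cluster had 63.3%, and 17 positions held the same residue in every member. Among transcripts annotated as protein coding, the longest exact run shared by any pair was 52 bases, between Hoxa6 and Hoxb4. Other annotated transcripts share longer stretches, given below for Hoxc5 with Hoxc10 and for Hoxd3 with Hoxd4.

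Paralog group 4 differed among its members in the diet comparison. Hoxa4 had a normalised CPM of 4.92, 0.460 and 1.68 in HFD 2, HFD 3 and HFD 4, against 2.16, 0.787 and 1.67 in CD 1, CD 2 and CD 4, so HFD 2 was the highest library and the groups overlapped. Its log2 fold change was 0.62 ± 0.82 (SE) and became -0.53 without HFD 2. Hoxb4, known for its part in the growth of blood stem cells, had 3.15, 2.87 and 3.13 CPM in the HFD libraries and 2.08, 2.29 and 7.59 CPM in CD 1, CD 2 and CD 4, with CD 1 and CD 2 below and CD 4 above the HFD range. Hoxd4 was at 1.18, 0.839 and 0.918 CPM in the HFD libraries, against 2.16, 0.933 and 2.12 CPM in CD 1, CD 2 and CD 4, and CD 2 lay among the HFD values.

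Hoxc10 (ENSMUSG00000022484, 102966796 to 102971893 on chromosome 15, plus strand), the most abundant member, had 22, 330 and 619 counts in HFD 2, HFD 3 and HFD 4, against 2606, 1272 and 1199 counts in CD 1, CD 2 and CD 4. As normalised CPM this was 0.320, 4.47 and 12.4 in HFD libraries and 66.2, 18.5 and 20.6 in CD libraries. The groups did not overlap, HFD 2 was lowest by far and CD 1 highest by far. The log2 fold change was -2.62 ± 1.11 (SE), between -3.87 and -1.77 with 1 library left out, and the adjusted p was 0.516 by edgeR. Hoxa10, the paralog that shares its work on the lumbar spine and the upper segment of the hindlimb in the mouse, showed the same order of groups with a narrower range: 0.988, 2.07 and 4.79 CPM in HFD libraries, against 17.7, 6.85 and 12.6 CPM in CD libraries, and a log2 fold change of -2.25 ± 0.63 (SE).

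Both homeobox stretches of this pair are printed from the same source, since these are the tested members of paralog group 10, and capitals in Hoxa10 mark the bases that differ from Hoxc10.
Hoxc10 chr15:102970851-102971030 (+), exon 2 of 2: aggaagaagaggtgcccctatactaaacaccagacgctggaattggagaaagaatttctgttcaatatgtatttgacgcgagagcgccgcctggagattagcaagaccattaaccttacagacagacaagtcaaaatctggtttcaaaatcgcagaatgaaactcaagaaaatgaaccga
Hoxa10 chr6:52232551-52232730 (-), exon 2 of 2: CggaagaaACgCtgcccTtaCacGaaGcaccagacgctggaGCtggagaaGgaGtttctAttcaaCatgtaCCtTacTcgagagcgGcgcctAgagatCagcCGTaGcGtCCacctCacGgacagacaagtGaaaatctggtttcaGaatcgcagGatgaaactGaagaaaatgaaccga
They differ at 34 of 180 bases and at 4 of 60 residues. An exon of an annotated Hoxc5 transcript shares 166 bases with Hoxc10 (chr15:102967443-102967608, 5.37% of the exonic bases of Hoxc5 and 8.70% of those of Hoxc10), and Hoxd3 and Hoxd4 share 388 exonic bases, so the counts of these 4 genes are uncertain to the extent that reads from shared exons were given to either.

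The other Hoxc members kept the same picture at lower levels. Hoxc6, which works in the thoracic region, was at 0.261, 1.03 and 1.20 CPM in HFD 2, HFD 3 and HFD 4, against 4.82, 3.19 and 8.50 CPM in CD 1, CD 2 and CD 4, with a log2 fold change of -2.73 ± 0.66 (SE). Hoxc9, of a group that sets the thoracic and upper lumbar region, was at 0.131, 1.27 and 2.37 CPM in HFD libraries and 7.72, 2.70 and 5.70 CPM in CD libraries, so HFD 4 came close to CD 2. Its log2 fold change was -2.10 ± 0.91 (SE). Hoxc5, a neighbour of Hoxc4 and Hoxc6, had 11, 32 and 39 counts in HFD libraries, against 82, 110 and 168 counts in CD libraries, and a log2 fold change of -2.27 ± 0.64 (SE). Hoxc8, which in the mouse shapes the lower ribs and the innervation of the forelimb, had 16, 20 and 47 counts in HFD libraries, against 58, 119 and 202 counts in CD libraries, and a log2 fold change of -2.23 ± 0.70 (SE). In both genes the highest HFD library was HFD 4 and the lowest CD library CD 1 by count. As normalised CPM the lowest CD library of Hoxc5 was CD 2, at 1.60, against 2.08 in CD 1. Hoxc11, of the group that patterns the sacral spine and the middle segment of the limb, had 0, 69 and 64 counts in HFD libraries, against 250, 197 and 155 counts in CD libraries, and its fold of -2.43 ± 1.23 (SE, log2) includes the 0 of HFD 2, which allows up to 3 counts (counting error only). At the end of the cluster, Hoxc12 had 4 counts in HFD 3 and none elsewhere. Hoxc13, which in the mouse is needed for hair and nails, had no counts in the HFD libraries and 12, 0 and 18 counts in CD 1, CD 2 and CD 4, too few for the filter.

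**Figure D3:**
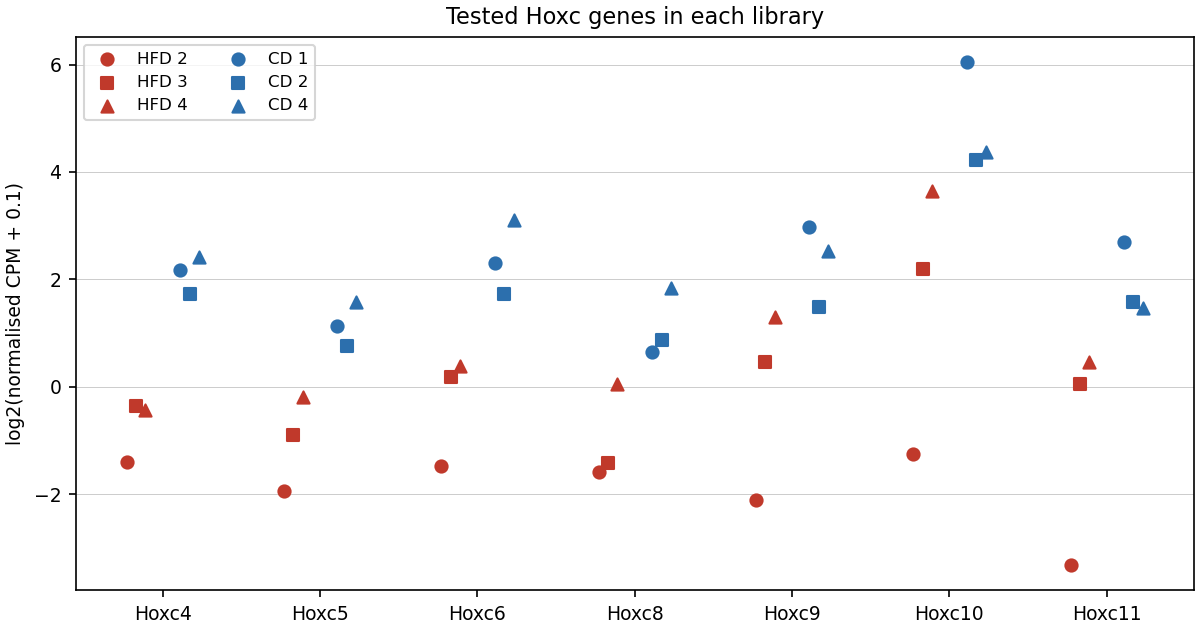
Level of the 7 tested Hoxc genes as log2(normalised CPM + 0.1), 1 point per library, HFD libraries in red on the left of each gene and CD libraries in blue on the right. In each gene the CD points lie above the HFD points, HFD 2 is the lowest point of every gene, and Hoxc10 has the widest spread, from 0.320 to 66.2 CPM.

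Hoxa, on chromosome 6, had 10 of 11 members with a lower fitted mean in HFD, and 6 of them without overlap between the groups, Hoxa2, Hoxa9 and Hoxa10 among them (10.2% of all tested genes). Without HFD 2 the log2 fold change was -1.88 in Hoxa2, -1.02 in Hoxa7, -1.36 in Hoxa9 and -1.85 in Hoxa10. Hoxa9, also a regulator of blood progenitors, had 1.58, 5.54 and 5.53 CPM in HFD 2, HFD 3 and HFD 4, against 12.3, 9.78 and 20.6 CPM in CD 1, CD 2 and CD 4. Its lowest CD library was above its highest HFD library, and the log2 fold change was -1.76 ± 0.53 (SE). Hoxa7, of the thoracic region, was at 1.57, 4.21 and 4.43 CPM in HFD libraries and at 8.02, 6.31 and 12.0 CPM in CD libraries. Hoxa3, which in the mouse is needed for the thymus, the parathyroid glands and parts of the neck, had 0.988, 1.15 and 1.52 CPM in HFD libraries, against 3.88, 1.78 and 3.89 CPM in CD libraries, with a log2 fold change of -1.38 ± 0.44 (SE). Hoxa2, which patterns the hindbrain and the skeleton of the pharyngeal arches, was low, with 50, 48 and 22 counts in HFD 2, HFD 3 and HFD 4, against 79, 95 and 155 counts in CD 1, CD 2 and CD 4. Its log2 fold change was -1.73 ± 0.46 (SE), with an adjusted p of 0.466 by edgeR and 0.0462 by DESeq2. Hoxa5, Hoxa6, Hoxa11 and Hoxa13 overlapped between the groups, with log2 fold changes between -1.41 and -0.87.

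Hoxb spans 96194316 to 96368256 on chromosome 11. A lower fitted mean in HFD was found in 8 of its 9 tested members, beside 52.5% of all tested genes. The groups stood apart in no member, where 10.2% of all tested genes lay lower in HFD without overlap. That share cannot be told apart from none over 9 genes. Hoxb2, which patterns the hindbrain, had 46, 70 and 109 counts in HFD 2, HFD 3 and HFD 4, against 12, 85 and 1188 counts in CD 1, CD 2 and CD 4, and Hoxb3 had 167, 84 and 167 counts in HFD libraries, against 75, 207 and 1227 in CD libraries. In both, CD 4 was by far the highest library and CD 1 the lowest by count. Without CD 4 the log2 fold change of Hoxb2 was 0.75 in place of -2.54, that of Hoxb3 -0.03 in place of -1.92, and the median of the cluster -0.03. At the other end Hoxb9, of the thoracic group, was at 0.232, 0.460 and 1.18 CPM in HFD libraries and at 2.49, 0.991 and 3.92 CPM in CD libraries, with CD 2 inside the HFD range and a log2 fold change of -1.99 ± 0.75 (SE). Hoxb6, of the thoracic region, was at 0.697, 0.894 and 1.70 CPM in HFD libraries, against 2.74, 1.33 and 3.22 CPM in CD libraries, with the same library inside the range. Hoxb5, Hoxb7 and Hoxb8 had between 17 and 230 counts per library, all overlapped, and their log2 fold changes were between -0.96 and -0.34.

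Hoxd, on chromosome 2 from 74668310 to 74765142, was the lowest cluster in number of tested members, 4 of 8. Hoxd8, the most abundant of them, had 5.06, 2.57 and 5.11 CPM in HFD 2, HFD 3 and HFD 4, against 9.80, 9.09 and 5.97 CPM in CD 1, CD 2 and CD 4. The groups did not overlap, HFD 4 and CD 4 were close, and the log2 fold change was -0.97 ± 0.37 (SE). Hoxd9, which with other members of its group acts in the limb and the lumbar region, was at 1.26, 0.948 and 2.14 CPM in HFD libraries and at 3.58, 3.19 and 1.19 CPM in CD libraries, so CD 4 lay among the HFD values. Hoxd3, of the neck region, had 42, 9 and 9 counts in HFD libraries, against 21, 38 and 42 counts in CD libraries, with HFD 2 level with CD 4. The posterior members that pattern the forearm, shin and digits in the embryo were close to undetected: Hoxd10 had 0 to 14 counts per library, Hoxd11 had 6 counts in HFD 2 alone, and Hoxd13 had 4 counts in HFD 4 and 3 in CD 4.

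Paralog group 13 was more visible in Hoxa and Hoxb. Hoxa13, a gene of the digits, hindgut and urogenital tract, had 8, 40 and 113 counts in HFD 2, HFD 3 and HFD 4, against 124, 8 and 120 counts in CD 1, CD 2 and CD 4, so each diet held a library at 8 counts and a library at 113 or more. Hoxb13, used in the tail bud, hindgut and prostate, had 10, 14 and 11 counts in HFD libraries and 0, 0 and 20 counts in CD 1, CD 2 and CD 4. The CD libraries at 0 were those with few counts of the intestinal gene Muc2, and what part intestinal RNA had in Hoxb13 was not tested. The remaining untested members, Hoxb1 and Hoxd1, had at most 8 counts in any library.

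The clusters' shares of all Hox counts also varied by library. Hoxc made up 4.33%, 22.3% and 28.6% of Hox counts in HFD 2, HFD 3 and HFD 4, against 52.1%, 37.4% and 26.0% in CD 1, CD 2 and CD 4. HFD 2 was low and CD 1 high, while HFD 4 was above CD 4, so the share of Hoxc overlapped between the groups. As summed normalised CPM, Hoxc was at 1.38, 9.14 and 19.6 in HFD libraries and at 93.3, 33.8 and 49.4 in CD libraries, without overlap. The 29 members outside Hoxc summed to 30.5, 31.8 and 48.9 CPM in HFD libraries, against 85.9, 56.5 and 140 CPM in CD libraries, also without overlap.

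**Figure D4:**
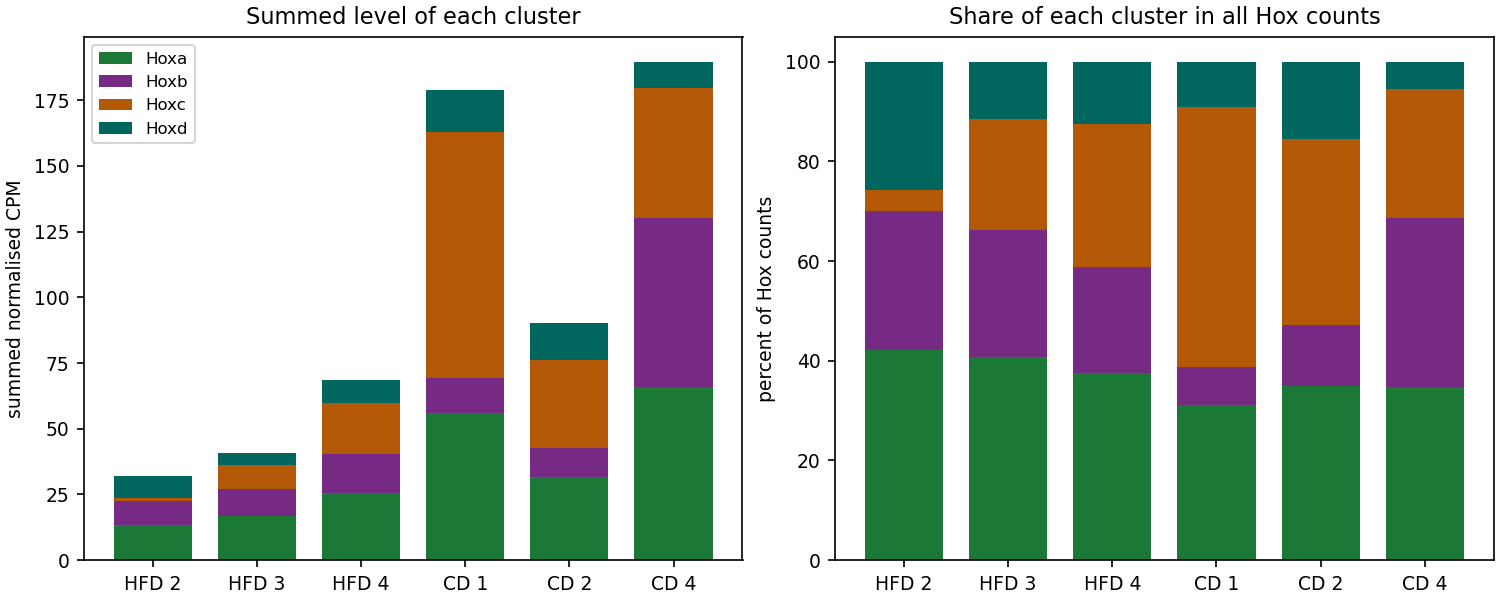
Stacked bars per library of the summed normalised CPM of each cluster (left) and of each cluster's percent of all Hox counts (right), HFD libraries on the left of each panel. The totals are 31.9 to 68.4 CPM in HFD libraries and 90.3 to 190 CPM in CD libraries, and the Hoxc share is smallest in HFD 2, 4.33%, and largest in CD 1, 52.1%.

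Of the connective tissue markers, the periosteum and cartilage lists were lower in every HFD library than in any CD library, as was the Hox sum. The marrow stroma list overlapped between the groups. Within HFD the periosteum list was lowest in HFD 3, at 436 CPM, and the Hox sum in HFD 2. Within CD the cartilage list was lowest in CD 1, at 161 CPM, and the Hox sum in CD 2. In the other diet each of these lists ranked the libraries as the Hox sum did. The marrow stroma list summed to 613, 1324 and 874 CPM in HFD 2, HFD 3 and HFD 4. In CD 1, CD 2 and CD 4 it was at 506, 816 and 654 CPM, with overlap. The summed level of the periosteum, tendon and fibroblast list, none of whose 10 genes was at 0, was 436 to 2484 CPM in HFD libraries and 3292 to 4449 CPM in CD libraries, and the cartilage list, where only Matn3 of 6 genes was at 0 in a library, was 25.2 to 149 CPM in HFD libraries and 161 to 628 CPM in CD libraries. The intestinal list went the other way, with 10 of its 16 genes at 0 somewhere. It was at 266, 396 and 362 CPM in HFD 2, HFD 3 and HFD 4, against 66.5, 89.5 and 238 CPM in CD 1, CD 2 and CD 4. CD 4 was thus close to HFD 2 and far from CD 1 and CD 2. The stem and progenitor list, of cells that also use Hoxa9 and Hoxb4, was at 106 to 176 CPM in HFD libraries and 135 to 155 CPM in CD libraries, and the bone matrix list at 1827 to 9065 CPM in HFD libraries and 7941 to 85791 CPM in CD libraries, both with overlap. Beyond fits with the intestinal, bone matrix or muscle list as a covariate, the part of these tissues in the Hox values was not tested.

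Prrx1, a homeobox gene of limb and connective tissue mesenchyme, was used as a denominator for Hox counts. Its normalised CPM was 36.4, 15.7 and 60.9 in HFD 2, HFD 3 and HFD 4, against 106, 73.4 and 200 in CD 1, CD 2 and CD 4, itself without overlap. Per 1000 counts of Prrx1, a denominator chosen after seeing the data, all Hoxc genes together had 37.9, 580 and 321 counts in HFD libraries and 881, 461 and 246 counts in CD libraries. HFD 2 stayed the lowest, while HFD 3 and HFD 4 lay within the CD range. The same ratio for Hoxc10 was 8.79, 284 and 203 in HFD libraries, against 625, 252 and 103 in CD libraries, and for Hoxc4 it was 7.59, 43.0 and 10.5 in HFD libraries, against 41.5, 43.5 and 26.0 in CD libraries. All Hoxa genes had 370, 1061 and 421 counts per 1000 of Prrx1 in HFD libraries and 528, 431 and 328 in CD libraries. In none of the 4 clusters, nor in Hoxc4, Hoxc9, Hoxc10, Hoxa10 or Hoxd8, did the diet groups separate on this ratio. Per 1000 counts of the skeletal muscle list, all Hoxc genes together were at 0.0469, 1.39 and 0.581 in HFD libraries and at 1.04, 1.72 and 2.99 in CD libraries, with overlap. Of the 9 ratios to that list only Hoxc10 separated, at 0.0109, 0.681 and 0.367 in HFD libraries and 0.736, 0.945 and 1.25 in CD libraries. No ratio to the bone matrix or periosteum list separated.

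**Figure D5:**
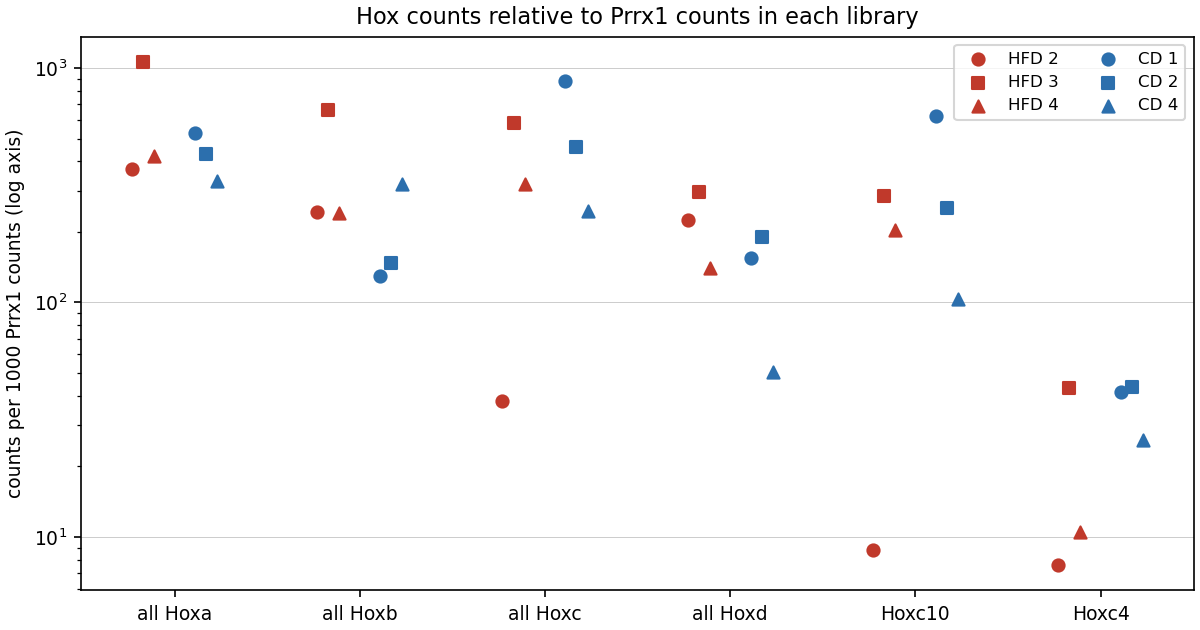
Counts of each Hox cluster, of Hoxc10 and of Hoxc4 per 1000 counts of Prrx1 (log axis), 1 point per library, HFD libraries in red on the left and CD libraries in blue on the right. The groups overlap in each column, and HFD 2 is the lowest point for Hoxc, at 37.9, and for Hoxc10, at 8.79.

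Among other limb patterning genes the values ran the same way as the Hox genes. Of 20 such genes 18 were tested, 17 had a lower fitted mean in HFD and 9 did not overlap, beside 52.5% and 10.2% of all tested genes, with a median log2 fold change of -1.32. The most abundant, Tbx15, a T-box gene of skeletal and fibre-type patterning, had 7250, 1102 and 5640 counts in HFD 2, HFD 3 and HFD 4, against 8559, 2914 and 4623 counts in CD 1, CD 2 and CD 4, and its groups overlapped. Tbx18, a T-box gene of somite and mesenchyme patterning and the one with the smallest p, had 128, 137 and 167 counts in HFD libraries and 270, 413 and 554 in CD libraries (log2 fold change -1.67 ± 0.38, SE). The limb type genes were looked at after their values were seen: the hindlimb gene Tbx4 had 28, 25 and 45 counts in HFD libraries, against 103, 230 and 116 in CD libraries, while the forelimb gene Tbx5 had 6 counts in CD 4 and none elsewhere. Tbx4 was thus detected in all libraries and Tbx5 was not.

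The proteins that Hox factors pair with on DNA were set beside the Hox genes. Of 9 TALE cofactor genes (Pbx, Meis and Pknox) 3 had a lower and 6 a higher fitted mean in HFD, with a median log2 fold change of 0.20. A lower fitted mean was found in 52.5% of all tested genes. Pbx2, the most abundant, had 3657, 4299 and 2171 counts in HFD 2, HFD 3 and HFD 4, against 1411, 3363 and 2589 counts in CD 1, CD 2 and CD 4 (log2 fold change 0.26 ± 0.22, SE), and Meis3, with the smallest p, had a log2 fold change of -0.87 ± 0.45 (SE). Among 23 chromatin regulators of Hox clusters, Polycomb and Trithorax group genes with Ctcf, 13 were lower and 10 higher, with a median of -0.03, the value over all genes. Ctcf, which insulates domains within the clusters, had a log2 fold change of 0.03 ± 0.22 (SE), and the Polycomb gene Phc1 one of -0.60 ± 0.24 (SE).

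Of 15 genes of retinoic acid signalling, which induces Hox genes in the embryo, 12 had a lower fitted mean in HFD, beside 52.5% of all tested genes. Their median log2 fold change was -0.63. The most abundant, the synthesis enzyme gene Aldh1a1, had 10836, 7774 and 8426 counts in HFD libraries and 9180, 4480 and 2776 counts in CD libraries, and the groups overlapped. Crabp1, a retinoic acid binding protein gene and the one with the smallest p, had no counts in the HFD libraries and 11, 39 and 27 counts in CD 1, CD 2 and CD 4. The noncoding genes of the Hox clusters numbered 14, of which 7 were tested, with a median of -0.92. All 7 had a lower fitted mean in HFD, beside 52.5% of all tested genes. Each overlapped between the groups, where 10.2% of all tested genes lay lower in HFD without overlap, a share that 7 genes cannot be told apart from. Hotairm1, a noncoding gene of the Hoxa cluster and the most abundant of them, had 78, 76 and 43 counts in HFD libraries, against 39, 46 and 180 in CD libraries, and Hoxaas2, with the smallest p, had 25, 46 and 25 counts in HFD libraries and 22, 44 and 90 in CD libraries. In both, CD 4 was the highest library. Without a settled use of strand in the counting, reads from any stretch where a noncoding gene overlaps a Hox gene on the opposite strand cannot be assigned. Which of them overlap was not examined. Cdx1, a homeobox gene of the intestine that acts upstream of Hox genes in the embryo, had 98, 86 and 118 counts in HFD libraries, against 4, 0 and 80 in CD 1, CD 2 and CD 4, and so divided the libraries as Muc2 did.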

How the data were processed

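Gene counts and FPKM of each library were deposited by the authors in 1 table. Tools listed by the submitters' processing notes include HISAT2 2.0.4, StringTie 1.3.4d, UMI-tools and cutadapt 1.9, whereas the methods name STAR and featureCounts, so the route to the deposited counts, removal of duplicates by molecular identifiers and use of strand are not settled. All sample columns matched a label. Counts were fitted over the whole table with edgeR 4.0.16 in R 4.3.3 by its quasi-likelihood test, after TMM scaling and filterByExpr at a count of 10, with Benjamini-Hochberg adjusted p-values held against 0.05. Normalised CPM used the TMM factors, 0.641 to 1.28. DESeq2 1.42.0, limma 3.58.1 on log2(FPKM + 1) and log2(FPKM + 0.1), other scalings, covariates and left-out libraries were alternatives. The members and lists were chosen with earlier results of these data known. Named with values per library were group 4 and group 13, per cluster the 3 genes with the highest mean FPKM and the 2 with the smallest p, and per context list the most abundant gene and that with the smallest p. Hoxa3, Hoxc5, Hoxc8, Hoxc11, Hoxd3, Prrx1, Tbx4, Tbx5 and the marker genes were added after their values were seen. The values of 1 tested member and some sequences are not reported here. Sequences came from GENCODE M21 (GRCm38), where 36 of the 38 members had the same start and end. Precision is limited by 3 libraries per group and, in low genes, by the counts printed.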

Additional observations from a re-analysis of the deposited data

How the results depend on the processing

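In the alternatives that tested them (19 for 20 members, 17 for the other 11, which the FPKM filter left out), 20 of the 31 members never changed the sign of their log2 fold change, all 7 Hoxc genes among them, while Hoxa4, Hoxa5, Hoxa6, Hoxa13, Hoxb2, Hoxb3, Hoxb4, Hoxb5, Hoxb8, Hoxb13 and Hoxd9 did in at least 1. The causes of the shifts below were not tested. On log2(FPKM + 1) the median log2 fold change was -0.48 over the family, -0.37 in Hoxa, -0.95 in Hoxc and -0.37 in Hoxd, over the 20 members that passed its filter, of which 18 were lower in HFD on that scale and 18 on log2(FPKM + 0.1). The + 1 scale compresses low values. The median of the tested genes that passed the FPKM filter was 0.19 on it and 0.27 on log2(FPKM + 0.1), where the family's median was -0.94. With no TMM scaling the median of all tested genes was 0.24 and the family's -1.14. DESeq2 called 5 members and edgeR 0 (12 at an unadjusted p under 0.05). With the bone matrix list as a covariate the median was 1.02 in Hoxb, -0.83 in Hoxa and -0.92 in the family, with 23 lower members. The Hoxb median was 0.36, with 25 members of the family lower, without HFD 2 and CD 4, a setting chosen after seeing the data, as were the scaling by totals alone, and CD 4 alone against HFD. Leaving out 1 library at a time, the median ran from -1.67 to -1.02 in the family, from -1.67 to -1.02 in Hoxa, from -1.42 to -0.03 in Hoxb, from -3.09 to -1.89 in Hoxc and from -1.04 to -0.67 in Hoxd, the number of lower members from 26 to 29, and the number called stayed at 0. In the fit with a replicate block the family median was -1.50 and the Hoxd median -0.49, and no member was called. Only numbers 2 and 4 occur in both groups, so the lack of calls in that fit says little. Deviations of libraries of the same number correlated at -0.155 for number 2 and 0.18 for number 4. With 2 pairs these values cannot show whether such libraries share more than a number. Members with under 20 counts in a library, such as Hoxb13, are limited by depth.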
